A study of Homo sapiens with 12 samples.

Results

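The 6 genes described here, OXTR, STXBP6, MEST, PLCB4, CPA4 and CASS4, were low in IMR90 fibroblasts that carried oncogenic RAS or overexpressed DOT1L. They were chosen among 48162 gene IDs for their changes in these same libraries: a fall in RAS, a fall in DOT1L overexpression, or a rise upon DOT1L knockdown in RAS cells, each among the largest. All 6 were found in the files and all 6 passed the filter on low counts in every comparison. Because the choice used these contrasts, the differences of the 6 genes are given as a description, with no test. The standard error (SE) beside them is approximate and was derived from the test statistic of the fit.

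IMR90 is a line of normal human lung fibroblasts, and DOT1L is the enzyme that methylates a lysine in the core of histone H3, a mark found over transcribed genes. The study asked how DOT1L bears on the gene expression program of senescent cells. RNA was sequenced in 4 groups of 3 libraries: RAS/shDOT1L (infected with pBABE-HRASG12V and pLKO.1-shDOT1L), RAS (pBABE-HRASG12V), DOT1L OE (MSCB-hDot1lwt, human DOT1L) and control (pBABE-Control). HRAS G12V is an oncogenic form of HRAS that drives these fibroblasts into senescence. Culture was in 2% oxygen for every group, and selection is recorded as 4 days for every sample. The recorded drug was puromycin (3 µg/mL) in RAS/shDOT1L, RAS and control, and blasticidin (1 µg/mL) in DOT1L OE. The control thus matches DOT1L OE neither in vector backbone nor in drug, and these cannot be told apart from the overexpression itself. The study's methods give a lower puromycin dose and a longer selection for cells with a pBABE vector than for cells with a hairpin. Dose and timing of selection may therefore differ between RAS/shDOT1L and the RAS and control libraries. The labels do not say which hairpin against DOT1L was used, and they name no control hairpin in the RAS cells. The study calls the libraries technical replicates in some places and biological ones in others, so SE and p-values measure the spread between libraries, which may be technical.

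The 6 genes belong to several pathways. OXTR is the receptor for oxytocin, which couples to Gq proteins, and PLCB4 is one of the beta-type phospholipases C that Gq activates to release calcium inside the cell. STXBP6, also named amisyn, binds SNARE proteins, which fuse vesicles with membranes during secretion. CASS4 is a member of the CAS family of scaffolds that sit at focal adhesions, where fibroblasts hold on to the matrix. CPA4 is a metallocarboxypeptidase, an enzyme that trims single residues from the C-terminal end of peptides. MEST is an imprinted gene, expressed from the paternal copy in most tissues, and encodes a protein with an alpha/beta hydrolase fold.

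Positions are those of GENCODE release 44 on GRCh38. OXTR (ENSG00000180914) is on chromosome 3, 8750381 to 8769628, minus strand. STXBP6 (ENSG00000168952) is on chromosome 14, 24809454 to 25050147, minus strand. CPA4 (ENSG00000128510) is on chromosome 7, 130293134 to 130324180, plus strand, and MEST (ENSG00000106484) lies on the same strand at 130486171 to 130506465. The starts of CPA4 and MEST are 193 kb apart, in the imprinted region of chromosome 7. PLCB4 (ENSG00000101333; 9067825 to 9504593) and CASS4 (ENSG00000087589; 56412112 to 56460387) are both on the plus strand of chromosome 20, far from each other.

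RefSeq promoters (GRCh38.p14) matched 4 of the 6 genes. The 250 bases before the RefSeq start site nearest to the start of the gene are printed for these 4. They were low together in RAS and in DOT1L OE, and the sequences show how unlike these windows are. Each sequence runs 5′ to 3′ on the strand of the gene, and capitals mark every match, on either strand, to one of 7 motifs: the TATA box as TATAAA, the CCAAT box as spelled, the GC box as GGGCGG, the AP-1 motif as TGANTCA, the C/EBP motif as TTNNGNAA, the CRE as TGACGTCA, and the CArG box. The windows are chr7:130292911-130293160 for CPA4, chr7:130485925-130486174 for MEST, chr3:8769614-8769863 for OXTR and chr14:25050148-25050397 for STXBP6.
CPA4: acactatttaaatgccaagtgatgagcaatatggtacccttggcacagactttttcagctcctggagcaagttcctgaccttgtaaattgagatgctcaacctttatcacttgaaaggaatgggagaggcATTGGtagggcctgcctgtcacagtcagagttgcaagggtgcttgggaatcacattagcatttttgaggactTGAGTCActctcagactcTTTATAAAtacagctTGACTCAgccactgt
MEST: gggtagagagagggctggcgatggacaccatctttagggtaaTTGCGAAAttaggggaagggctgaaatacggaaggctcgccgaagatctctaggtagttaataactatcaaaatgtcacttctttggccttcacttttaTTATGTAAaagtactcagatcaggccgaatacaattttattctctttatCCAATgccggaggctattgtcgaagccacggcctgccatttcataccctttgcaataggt
OXTR: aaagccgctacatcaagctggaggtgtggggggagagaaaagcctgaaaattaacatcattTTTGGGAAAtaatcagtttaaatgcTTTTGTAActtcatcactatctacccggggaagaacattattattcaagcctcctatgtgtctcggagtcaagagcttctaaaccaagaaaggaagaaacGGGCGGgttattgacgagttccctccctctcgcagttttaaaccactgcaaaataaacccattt
STXBP6: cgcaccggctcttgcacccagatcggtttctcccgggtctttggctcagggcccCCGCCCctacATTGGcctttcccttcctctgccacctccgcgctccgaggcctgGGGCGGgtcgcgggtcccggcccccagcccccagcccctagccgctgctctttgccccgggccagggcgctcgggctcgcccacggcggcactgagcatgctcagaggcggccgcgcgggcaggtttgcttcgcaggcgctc

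The CPA4 window held no CpG at all. It held TATAAA letters 28 bases before the start site, overlapping a match on the other strand, and TGAGTCA at 48 bases and TGACTCA at 15 bases before it, each of which reads as the AP-1 motif on both strands. A CCAAT box lay on the other strand, 120 bases before the start site. Of 35116 RefSeq promoters of the same length, 10.7% held TATAAA and 6.57% held the AP-1 motif on either strand. The STXBP6 window was the most GC-rich of the 4, at 73.6% GC with 25 CpGs, and held 2 GC boxes and a CCAAT box, which were found in 42.6% and 32% of all promoters. The OXTR and MEST windows, at 42% and 44% GC, held matches to the C/EBP motif (33.2% of all promoters), and beside these OXTR held a GC box and MEST a CCAAT box. The median over all promoters was 58% GC with a CpG ratio, observed over expected, of 0.558, against ratios of 0 for CPA4, 0.75 for MEST, 0.635 for OXTR and 0.756 for STXBP6. None of the 4 windows held the CRE (1.65% of all promoters) or the CArG box (1.16%). No motif was shared by all 4 windows, and the CCAAT box was in those of CPA4, MEST and STXBP6. These matches describe letters only, and only for the start site nearest to the start of each gene. At the next start site, the window had 68% GC for OXTR and 62% for MEST, neither with a C/EBP match. That of STXBP6 had 55.6% GC and held a C/EBP match. MEST start sites farther on, 5158, 5887 and 5914 bases after the start of the gene, had 46.8%, 68.4% and 69.6% GC. The window at 5158 bases held a C/EBP match, and those at 5887 and 5914 bases held a GC box but no C/EBP match.

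The labels were checked first. DOT1L stood at 10.99 ± 0.645 CPM (the usual measure of counts scaled to library size, with TMM factors and without gene length; mean ± SD, n = 3 here and below) in RAS/shDOT1L, 84.5 ± 3.42 in RAS, 202 ± 9.19 in DOT1L OE and 31.7 ± 2.33 in control. HRAS stood at 276 ± 13.0, 503 ± 10.0, 79.4 ± 5.46 and 86.0 ± 2.82 CPM in the same order. Counts of both genes include reads from the introduced cDNA. In RAS/shDOT1L, HRAS was lower than in RAS by 1.80-fold (log2 change -0.85, SE 0.05; edgeR quasi-likelihood test with Benjamini-Hochberg adjustment, adjusted p = 3.87e-16), so the level of HRAS was not matched between the knockdown libraries and RAS. The part of this difference in the values below was not tested. Library totals ranged from 16128055 to 19503457 counts.

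OXTR was nearly absent in RAS. It stood at 4.05, 3.64 and 3.91 CPM in RAS/shDOT1L, 0.239, 0 and 0.0639 CPM in RAS, 4.48, 4.21 and 3.89 CPM in DOT1L OE, and 18.1, 20.5 and 20.5 CPM in control. The RAS values rest on 4, 0 and 1 counts, against 351, 380 and 408 counts in control, and a count of 0 in RAS replicate 2 allows a level of up to 0.182 CPM (3 counts). RAS had the lowest libraries and control the highest, and the libraries of DOT1L OE and RAS/shDOT1L overlapped. The log2 change of OXTR was -7.50 (SE 0.35) for RAS against control, -2.23 (SE 0.15) for DOT1L OE against control and 5.16 (SE 0.71) for RAS/shDOT1L against RAS. From the summed counts alone, 5 in RAS and 1139 in control, the ratio was 193-fold with a 95% exact counting interval of 82.4 to 595, which covers counting error only. This interval is wider than the SE of 0.35 implies, so that SE understates the uncertainty of the fall in RAS. For the knockdown, 182 counts in RAS/shDOT1L and 5 in RAS gave 37.8-fold (15.9 to 118). Without RAS replicate 1, which held 4 of the 5 counts, the fitted log2 change became -9.02 against control and 6.65 for the knockdown.

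STXBP6 was the other gene of the group with its lowest level in RAS and few counts there. It stood at 21.5, 15.9 and 21.0 CPM in RAS/shDOT1L, 2.504, 0.849 and 0.830 CPM in RAS, 6.67, 6.92 and 5.71 CPM in DOT1L OE, and 24.8, 24.7 and 23.5 CPM in control. No libraries of different groups overlapped, and the knockdown libraries came closest to control. The log2 change was -4.11 (SE 0.24) for RAS against control, -1.92 (SE 0.13) for DOT1L OE against control and 3.80 (SE 0.28) for RAS/shDOT1L against RAS. RAS replicate 1 was again the highest RAS library, with 42 counts beside 14 and 13. Without it the log2 changes were -4.84 against control and 4.54 for the knockdown.

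PLCB4 had the order of STXBP6 in RAS and DOT1L OE, but overshot control in the knockdown. It stood at 133, 143 and 137 CPM in RAS/shDOT1L, 9.96, 12.5 and 6.32 CPM in RAS, 31.2, 32.1 and 26.4 CPM in DOT1L OE, and 82.0, 91.1 and 93.1 CPM in control. Each RAS/shDOT1L library was above each control library. The log2 change of PLCB4 was -3.21 (SE 0.13), -1.57 (SE 0.08) and 3.85 (SE 0.12) in RAS against control, DOT1L OE against control and RAS/shDOT1L against RAS. Against control, the RAS/shDOT1L libraries were 1.55-fold higher (log2 change 0.63, SE 0.07).

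MEST was as low in DOT1L OE as in RAS. It stood at 254, 275 and 255 CPM in RAS/shDOT1L, 14.6, 20.8 and 23.2 CPM in RAS, 16.3, 16.6 and 19.6 CPM in DOT1L OE, and 245, 228 and 224 CPM in control. The RAS and DOT1L OE libraries overlapped, and the RAS/shDOT1L and control libraries lay far above them. The log2 change was -3.58 (SE 0.09) for RAS against control, -3.72 (SE 0.07) for DOT1L OE against control and 3.76 (SE 0.10) for RAS/shDOT1L against RAS. Every RAS/shDOT1L library was above every control library, by a mean of 1.13-fold (log2 change 0.18, SE 0.05).

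CPA4, which had the highest level per length of the 6 in control, was lowest in DOT1L OE. It stood at 208, 198 and 213 CPM in RAS/shDOT1L, 42.8, 41.3 and 41.5 CPM in RAS, 17.0, 16.6 and 13.2 CPM in DOT1L OE, and 316, 321 and 316 CPM in control. The 4 groups were fully separated. The log2 change was -2.92 (SE 0.06) for RAS against control, -4.35 (SE 0.07) for DOT1L OE against control and 2.32 (SE 0.07) for RAS/shDOT1L against RAS.

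CASS4 had the same order of groups at a lower level. It stood at 8.03, 7.47 and 8.08 CPM in RAS/shDOT1L, 4.35, 3.09 and 3.07 CPM in RAS, 1.17, 1.68 and 2.20 CPM in DOT1L OE, and 21.5, 15.8 and 18.9 CPM in control. Its groups did not overlap either, although DOT1L OE rested on only 22, 36 and 47 counts. The log2 change was -2.42 (SE 0.20) for RAS against control, -3.45 (SE 0.20) for DOT1L OE against control and 1.18 (SE 0.27) for RAS/shDOT1L against RAS.

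**Figure D1:**
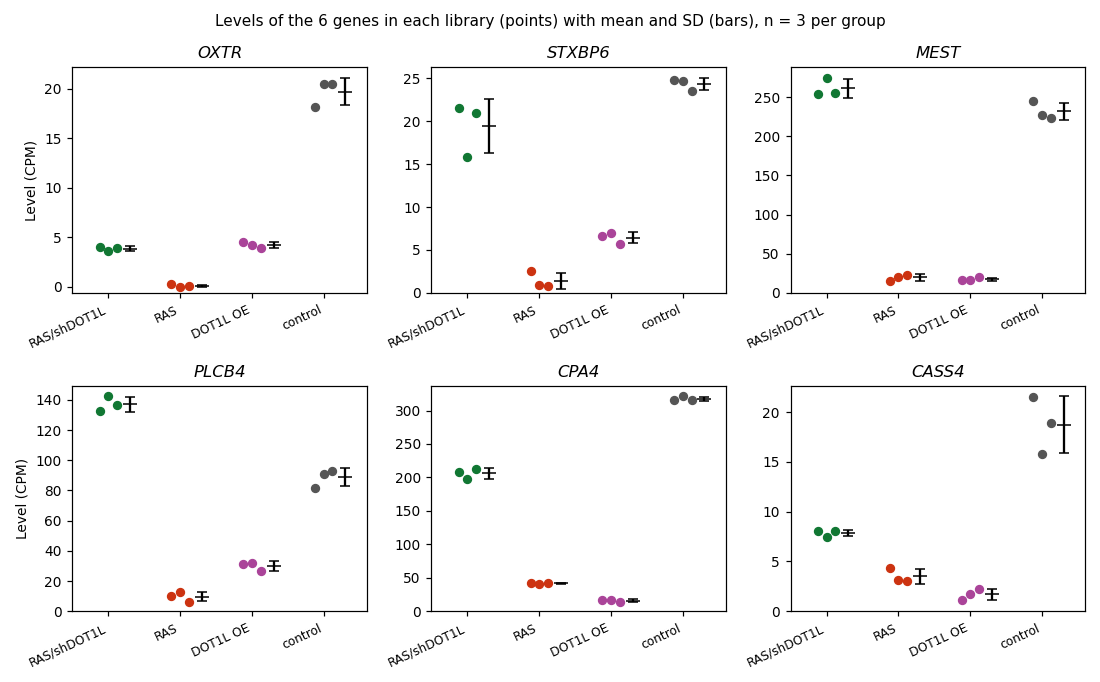
Levels of the 6 genes in CPM (vertical axes, a scale for each gene), with 1 point per library and the mean ± SD (n = 3) beside the points, for RAS/shDOT1L, RAS, DOT1L OE and control. In RAS and DOT1L OE all 6 genes lie below control, with OXTR at 0 to 0.239 CPM in RAS, and in RAS/shDOT1L MEST and PLCB4 lie above control.

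Set side by side, the 6 genes had 3 orders of RAS and DOT1L OE. OXTR, STXBP6 and PLCB4 were lower in RAS than in DOT1L OE, by 41.6-fold, 4.61-fold and 3.12-fold on the ratio of DOT1L OE to RAS means. The size of the OXTR ratio is imprecise, because its RAS mean of 0.101 CPM rests on 5 counts in all. CPA4 and CASS4 were the other way round, with RAS means 2.69-fold and 2.08-fold above those of DOT1L OE. For MEST the ratio of RAS to DOT1L OE was 1.12, with overlapping libraries. Both comparisons with control share the control libraries.

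The genes also differed in how far the knockdown libraries stood from control. As a share of the gap between the RAS and control means, the RAS/shDOT1L mean covered 161% for PLCB4 (155% to 168% over the 3 libraries), 114% for MEST (110% to 120%), 78.8% for STXBP6 (63.2% to 87.8%) and 59.6% for CPA4 (56.5% to 62.2%). The share was 28.6% (26% to 30.1%) for CASS4 and 19.2% (18% to 20.1%) for OXTR. OXTR thus had the largest knockdown ratio to RAS, though on 5 counts in RAS. It was also the gene that stayed farthest below control, at 19.6% of the control mean (log2 change of RAS/shDOT1L against control -2.34, SE 0.18). The corresponding log2 changes were -0.32 (SE 0.13) for STXBP6, -0.62 (SE 0.05) for CPA4 and -1.25 (SE 0.17) for CASS4.

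**Figure D2:**
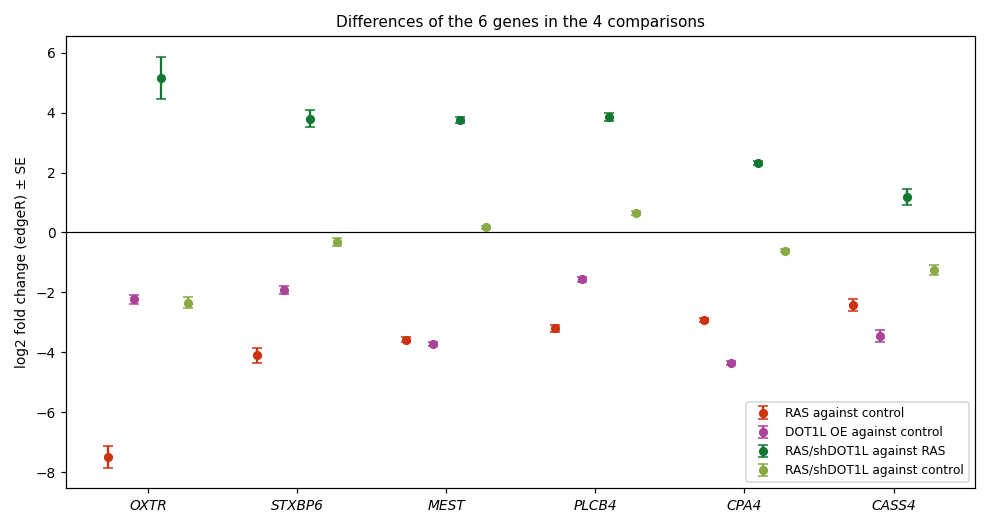
Log2 fold changes with SE (vertical axis, from edgeR, n = 3 libraries per group) of the 6 genes (horizontal axis) in the 4 comparisons, 1 colour per comparison. RAS against control runs from -7.50 for OXTR to -2.42 for CASS4 and DOT1L OE against control from -4.35 for CPA4 to -1.57 for PLCB4, while RAS/shDOT1L against control lies near 0 for MEST and STXBP6.

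Differences were common across all genes. In RAS against control, 13554 genes were tested, of which 31.9% were called higher and 32.0% lower at an adjusted p under 0.05, and in 34.3% all RAS libraries were below all control libraries; 6 of the 6 genes were among the last. In DOT1L OE against control 29.9% were called higher and 29.9% lower, and in 32.2% the DOT1L OE libraries all lay below control, again including 6 of the 6. In RAS/shDOT1L against RAS 26.3% were called higher and 26.4% lower, and in 28.6% the RAS/shDOT1L libraries all lay above RAS, as for 6 of the 6. In RAS/shDOT1L against control 27.9% were called higher and 27.6% lower, and 31.5% had RAS/shDOT1L libraries all below control, as did 4 of the 6. Because the 6 genes were chosen on these contrasts, nothing is read from their counts.

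Only genes with a symbol other than their ID were placed in order. They also had a call, no overlap and a mean of at least 10 CPM in the higher group. For the 6 genes the call served only to form this order. By size of fall in RAS, they stood at places 1 (OXTR), 5 (STXBP6), 14 (MEST), 24 (PLCB4), 34 (CPA4) and 74 (CASS4) of 3107. In DOT1L OE, of 3188 falls, CPA4 was at place 2, MEST at 4, CASS4 at 5, OXTR at 48, STXBP6 at 80 and PLCB4 at 157. Of 2668 rises with the knockdown, PLCB4, STXBP6 and MEST were at places 1, 2 and 3 and CPA4 at 28, while OXTR and CASS4 stayed under 10 CPM in RAS/shDOT1L. The 6 genes were thus not an unbroken run of the largest changes. In RAS, EGF (log2 change -4.78), TNFSF4 (-4.28) and KCNE1 (-4.24) fell more than STXBP6 (-4.11), and MYBL1 (-3.92) came next after it. In DOT1L OE, KCNN2 (-5.40) and EGF (-4.04) fell more than CASS4 (-3.45), and CCDC81 (-3.44) came next after it.

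Per kilobase of exonic length, CPA4 and MEST were well above the rest in control, at 80.3 and 48.7 CPM per kb, against 4.34 for OXTR, 4.11 for PLCB4, 3.69 for CASS4 and 3.00 for STXBP6. In RAS the 6 genes ranged from 0.0222 (OXTR) to 10.6 (CPA4) CPM per kb and in DOT1L OE from 0.333 (CASS4) to 3.94 (CPA4). CPA4 thus remained the highest of the 6 per length in both, and the lowest was a different gene in each.

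The receptor OXTR and the phospholipase PLCB4 belong to a pathway of which 27 other Gq-coupled receptors were followed. In RAS against control 17 of them were tested, with 6 higher and 7 lower (median log2 change -0.12, against -0.04 over all genes). In DOT1L OE against control 9 of 18 were higher and 3 lower (median 0.47, against 0.01), and in RAS/shDOT1L against RAS 5 of 18 were higher and 6 lower (median -0.12, against 0.03). The 5 became 3 without RAS replicate 3, without RAS/shDOT1L replicate 3, or with the trend of each library over GC content taken out (GC offset). LPAR1, a receptor for lysophosphatidic acid, was lower in both overexpressions, at 93.6 ± 10.6 CPM in RAS (log2 change -1.77, SE 0.06, adjusted p = 8.65e-23) and 190 ± 6.48 in DOT1L OE (-0.74, SE 0.05, adjusted p = 5.57e-15), against 318 ± 9.15 in control. Other receptors went the opposite way from OXTR. F2RL1, a receptor activated by proteases, was 11.7-fold higher in RAS (adjusted p = 1.01e-26), and EDNRB, an endothelin receptor, was 13.5-fold higher in DOT1L OE (adjusted p = 6.36e-20). Of the 5 receptors that rose with the knockdown, HRH1, a histamine receptor, was 1.90-fold higher in RAS/shDOT1L than in RAS (adjusted p = 2.22e-05). AVPR1A, a vasopressin receptor of the same family as OXTR, had no count in any library.

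Of 30 other genes of Gq signalling and calcium release, 24 were tested in RAS, with 10 higher and 9 lower (median log2 change 0.02), 25 in DOT1L OE, with 8 higher and 8 lower (0.02), and 23 in the knockdown, with 6 higher and 11 lower (-0.31). The 6 became 3 without RAS replicate 2 and with the GC offset, and 2 with the GC offset and the replicate block together. The relatives of PLCB4 with counts differed from each other. PLCB3, the most abundant relative, stood at 56.3 ± 3.92 CPM in RAS/shDOT1L, 99.98 ± 6.40 in RAS, 73.1 ± 4.88 in DOT1L OE and 54.8 ± 4.76 in control, thus higher in RAS (log2 change 0.87, SE 0.07, adjusted p = 6.05e-12) and DOT1L OE (0.42, SE 0.07, adjusted p = 1.35e-05), and lower in the knockdown than in RAS (-0.81, SE 0.08, adjusted p = 2.24e-10). PLCB1 was lower in RAS, at 1.93 ± 0.324 CPM against 5.20 ± 0.862 in control (log2 change -1.43, SE 0.32, adjusted p = 0.000238). Its differences in DOT1L OE (adjusted p = 0.139) and in the knockdown (adjusted p = 0.0768) did not pass the test. PLCB2 had a mean under 1 CPM in every group. Among regulators further down, RGS3, which speeds up the inactivation of G proteins, was 5.39-fold higher in RAS (adjusted p = 1.48e-27), and PRKCA and PRKCE, 2 of the protein kinases C, were 2.62-fold and 4.54-fold lower (adjusted p = 4.27e-15 and 2.57e-13). In DOT1L OE, RGS4 was 7.16-fold lower (adjusted p = 3.97e-18).

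CASS4 has 3 relatives in the CAS family, and 1 of them, NEDD9, differed in the same directions. Its lowest level was in RAS, whereas that of CASS4 was in DOT1L OE. NEDD9 stood at 35.3 ± 3.70 CPM in RAS/shDOT1L, 13.4 ± 2.42 in RAS, 33.0 ± 0.605 in DOT1L OE and 73.3 ± 3.92 in control. It was lower in RAS (log2 change -2.46, SE 0.11, adjusted p = 1.44e-19) and in DOT1L OE (-1.15, SE 0.08, adjusted p = 1.42e-14) than in control, and higher in RAS/shDOT1L than in RAS (1.42, SE 0.14, adjusted p = 2.99e-10). BCAR1, the founding member, stood at 321 ± 12.2 CPM in RAS and 299 ± 13.7 in DOT1L OE, against 247 ± 6.81 in control (log2 changes 0.38 and 0.28, adjusted p = 6.76e-09 and 5.01e-06). The RAS difference of BCAR1 turned to -0.21 with the GC offset, and that of EFS, the third relative, from 0.27 (adjusted p = 0.0101, and 0.103 without control replicate 3) to -0.33. In DOT1L OE, EFS was above control by 1.498-fold (adjusted p = 2.11e-07). Of 28 genes for CAS scaffolds and focal adhesion partners, CASS4 left out, 8 were higher and 13 lower of 26 tested in RAS, 5 and 11 of 26 in DOT1L OE, and 8 and 11 of 25 in the knockdown, with medians of -0.22, -0.11 and -0.10 on the log2 scale. With the GC offset 10 were higher and 7 lower in the knockdown. PXN (paxillin) was 2.05-fold higher in RAS (adjusted p = 1.06e-19) and VCL (vinculin) 1.85-fold lower (adjusted p = 4.96e-20). ZYX (zyxin) was 1.91-fold lower in DOT1L OE (adjusted p = 3.29e-20).

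**Figure D3:**
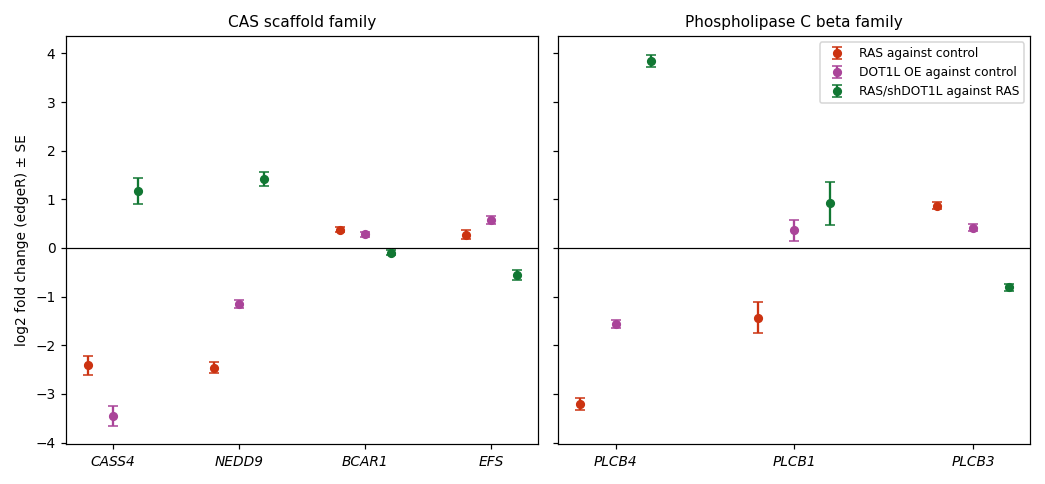
Log2 fold changes with SE (vertical axis, from edgeR, n = 3 libraries per group) of CASS4 and its CAS family relatives (left) and of PLCB4 and its relatives with counts (right), in 3 comparisons. NEDD9 lies below 0 in RAS (-2.46) and DOT1L OE (-1.15) and above 0 in the knockdown (1.42), as CASS4 does, while PLCB3 lies at 0.87, 0.42 and -0.81, opposite to PLCB4.

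Beside STXBP6, 42 of 43 listed genes for SNARE proteins and their binding partners were in the files. In RAS 8 were higher and 15 lower of 39 tested (median log2 change -0.27), against 31.9% and 32.0% of all genes. With the GC offset this balance turned, with 10 higher and 5 lower. In DOT1L OE 2 were higher and 22 lower of 39 (median -0.35), against 29.9% each of all genes. In RAS/shDOT1L against RAS, 15 were higher and 9 lower of 40 (median 0.15). STX12, an endosomal syntaxin, stood at 192 ± 3.16 CPM in RAS/shDOT1L, 109 ± 3.595 in RAS, 85.4 ± 1.67 in DOT1L OE and 212 ± 3.99 in control. It was lower in RAS (log2 change -0.96, SE 0.05, adjusted p = 5.47e-17) and in DOT1L OE (-1.31, SE 0.05, adjusted p = 4.36e-20), and higher in the knockdown (0.84, SE 0.06, adjusted p = 1.23e-13). VAMP5, a vesicle-associated membrane protein, was 4.47-fold lower in RAS than in control (adjusted p = 1.65e-19) and 2.70-fold higher in RAS/shDOT1L than in RAS (adjusted p = 2.07e-12). STXBP5, a syntaxin-binding relative by name, stood at 13.0 ± 4.02 CPM in RAS, against 17.1 ± 1.47 in control (log2 change -0.40, SE 0.17, adjusted p = 0.0426), and turned to 0.21 with the GC trend removed. Its adjusted p was 0.165 without control replicate 1, 0.0832 without control replicate 3, 0.251 without RAS replicate 2 and 0.163 without RAS replicate 3.

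Few other metallocarboxypeptidases were expressed. Of 19 genes for these enzymes and their inhibitors, 7 were tested in RAS (1 higher, 4 lower), 8 in DOT1L OE (3 higher, 3 lower) and 7 in the knockdown (2 higher, 2 lower), with median log2 changes of -0.34, -0.09 and -0.06. With the GC offset 2 were higher and 2 lower in RAS. CPA1, CPA3, CPA5 and CPA6, relatives of CPA4, held 0, 19, 75 and 25 counts over all 12 libraries. CPE, which processes prohormones, stood at 14.6 ± 1.81 CPM in RAS/shDOT1L, 7.89 ± 1.20 in RAS, 2.51 ± 0.459 in DOT1L OE and 18.01 ± 2.59 in control, and so had the group order of CPA4. Its log2 change was -1.19 (SE 0.17, adjusted p = 2.38e-07) in RAS, -2.83 (SE 0.18, adjusted p = 5.06e-15) in DOT1L OE and 0.91 (SE 0.19, adjusted p = 0.000143) in the knockdown. AEBP1 and CPXM1, members of the superfamily that are held to lack peptidase activity, were higher in DOT1L OE by 3.87-fold and 15.6-fold (adjusted p = 1.23e-20 and 9.20e-15).

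MEST was set beside 40 other imprinted genes, of which 35 were in the files. In RAS 6 were higher and 10 lower of 24 tested (median log2 change -0.44), in DOT1L OE 10 and 11 of 24 (-0.23), and in the knockdown 7 and 5 of 23 (0.16). Scaled by library size alone, 3 were higher and 12 lower in RAS, and in the knockdown 9 were higher and 3 lower with the GC offset. MEG3, a maternally expressed noncoding RNA, was lower in both, by 1.90-fold in RAS (adjusted p = 1.34e-12) and 2.23-fold in DOT1L OE (adjusted p = 1.69e-15). GRB10, an adaptor of growth factor receptors, was higher in both, by 3.49-fold and 2.61-fold (adjusted p = 9.11e-15 and 3.33e-12). DLK1, which is paternally expressed like MEST, was 5.73-fold higher in DOT1L OE (adjusted p = 1.75e-15), and PEG10, also paternally expressed, was lower by 2.61-fold with the knockdown (adjusted p = 2.89e-10).

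The genes around CPA4 and MEST were looked at because these 2 lie in 1 region. Within 500 kb of CPA4, apart from MEST, 20 annotated genes were in the files and 6 were tested. The largest log2 change among the 6 in RAS against control, DOT1L OE against control or RAS/shDOT1L against RAS was that of UBE2H, at -0.73 in DOT1L OE (adjusted p = 1.37e-13). LINC00513, a noncoding RNA, starts 368 kb from MEST and lies outside the window of CPA4. It was lower in RAS (-2.07, adjusted p = 0.00676), at 0.369 ± 0.124 CPM against 1.57 ± 0.574 in control. In DOT1L OE it did not pass the test (-0.21, adjusted p = 0.705), and in the knockdown it was not tested. CEP41, which starts 149 kb after CPA4 and 43.7 kb before MEST, stood at 10.6 CPM in RAS/shDOT1L, 15.4 in RAS, 26.4 in DOT1L OE and 18.1 in control, with log2 changes of -0.24 in RAS (adjusted p = 0.133), 0.55 in DOT1L OE (adjusted p = 4.91e-05) and -0.52 in the knockdown (adjusted p = 0.0111). COPG2, which lies on the opposite strand with its annotated 3′ end overlapping that of MEST, had log2 changes of 0.04, 0.13 and 0.38, none past the test (adjusted p = 0.878, 0.514 and 0.101). KLHDC10 was lower in RAS (-0.46, adjusted p = 0.000238) and DOT1L OE (-0.51, adjusted p = 1.34e-05), but in RAS the call was lost with the GC offset (-0.17, adjusted p = 0.161). Since the strand setting of the counts is not given in the sources used here, reads of MEST and of antisense transcripts over it cannot be told apart.

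**Figure D4:**
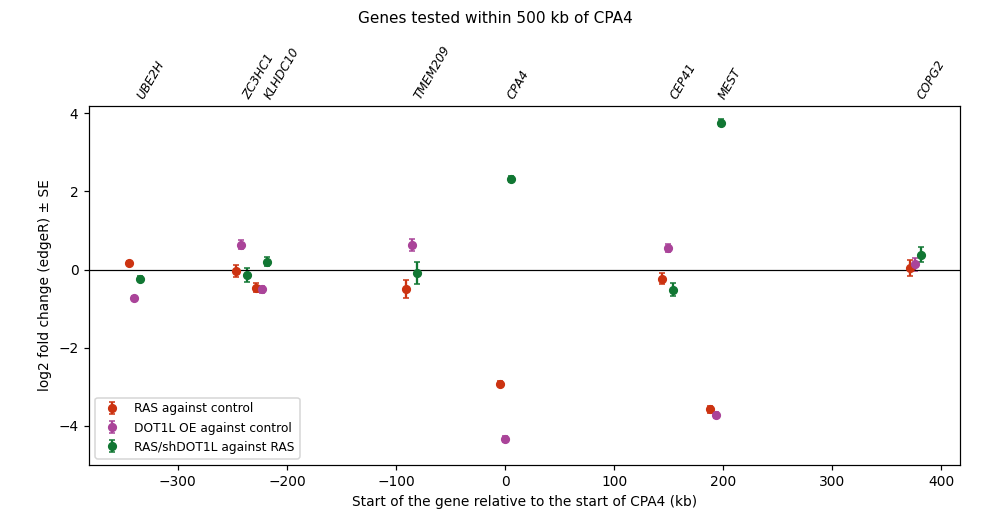
Log2 fold changes with SE (vertical axis, from edgeR, n = 3 libraries per group) of the genes tested within 500 kb of CPA4, against the distance of their starts from that of CPA4 (horizontal axis, kb), in 3 comparisons. CPA4 and, 193 kb on, MEST lie at -2.92 and below in RAS and DOT1L OE and at 2.32 and above in the knockdown, while CEP41 between them lies between -0.52 and 0.55.

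Around the other 4 genes the picture was sparser. Of the genes that start within 500 kb of OXTR, only LMCD1 and RAD18 were tested. LMCD1, which starts 268 kb away and encodes a LIM domain protein, had log2 changes of -0.72 in RAS (adjusted p = 7.53e-06), -0.78 in DOT1L OE (adjusted p = 5.93e-07) and 1.48 in the knockdown (adjusted p = 2.61e-13), the directions of OXTR at a smaller size. RAD18, an enzyme of DNA damage tolerance that starts 194 kb away, was lower in RAS (-1.29, adjusted p = 2.19e-06), higher in DOT1L OE (0.56, adjusted p = 0.000436) and higher in the knockdown (0.95, adjusted p = 0.00165). Near CASS4, AURKA, a mitotic kinase, was 4.02-fold higher in DOT1L OE (log2 change 2.01, adjusted p = 9.47e-18) and TFAP2C, a transcription factor, was higher in RAS (3.28, adjusted p = 2.98e-20) and DOT1L OE (2.19, adjusted p = 2.26e-14), opposite to CASS4. Other neighbours of CASS4 had its direction in some comparisons. RTF2 was lower in DOT1L OE (-0.37, adjusted p = 6.81e-06) and FAM210B was higher in the knockdown (0.56, adjusted p = 4.37e-08). RPL39P, a pseudogene inside the span of CASS4 on the opposite strand, was lower in RAS (-1.57, adjusted p = 0.04) and DOT1L OE (-2.69, adjusted p = 0.000154), at a mean of at most 1.73 CPM, and without a known strand setting its reads cannot be told apart from those of CASS4. No other gene within 500 kb of STXBP6 or PLCB4 passed the filter.

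The genes whose log2 CPM was most like that of each of the 6, by Pearson's r over the 12 libraries among 9390 candidates, differed from gene to gene. These correlations describe 12 points in 4 groups, so they mostly follow the group means. OXTR was closest to PHKB (r = 0.99), NMT2 (0.986) and PPP3CA (0.985), and STXBP6 to VTA1 (0.995), PFN2 (0.977) and COPS2 (0.976). MEST was closest to SCD (0.996), CALD1 (0.994) and ARHGAP29 (0.993). SCD, the stearoyl-CoA desaturase, stood at 160 CPM in RAS/shDOT1L, 45.8 in RAS, 42.4 in DOT1L OE and 155 in control. PLCB4 was closest to TPM1 (0.987), IDH1 (0.986) and ALPK2 (0.982), CPA4 to STX12 (0.995) and SPARC (0.994), and CASS4 to CD99 (0.987), TM7SF3 (0.985) and SPCS3 (0.979). STX12 varied less than CPA4, with a mean of 85.4 CPM in DOT1L OE, against 212 CPM in control. Among the 6 themselves, r was highest for CPA4 with CASS4 (0.954) and for STXBP6 with PLCB4 and MEST with CPA4 (0.945 each), and lowest for OXTR with CPA4 (0.493).

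Markers of fibroblasts were abundant in all groups, and some markers of other cell types moved with the 6 genes. The summed level of 5 smooth muscle markers, which cultured fibroblasts also express, was 2882 to 3025 CPM in RAS/shDOT1L, 1308 to 1396 in RAS, 999 to 1153 in DOT1L OE and 3806 to 3816 in control. Of these 5, 4 were lower and 1, MYH11, higher in RAS, 3 lower in DOT1L OE, and 5 higher in the knockdown. The 7 epithelial markers summed to 320 to 344 CPM in RAS/shDOT1L, 98.0 to 109.5 in RAS, 127 to 134 in DOT1L OE and 257 to 276 in control, almost all of it keratin, with CDH1 at 0 in RAS and at most 0.344 CPM on average elsewhere. The 4 endothelial markers summed to 23.5 to 28.7, 60.5 to 65.5, 134 to 147 and 63.9 to 69.9 CPM in the same order. The 5 leukocyte markers stayed at or under 3.58 CPM in sum, with PTPRC at 0 in RAS/shDOT1L. The 20 fibroblast markers summed to 20950 to 21990 CPM in RAS/shDOT1L, 21800 to 22370 in RAS, 21690 to 22890 in DOT1L OE and 28710 to 29230 in control. What part such differences have in the values of the 6 genes was not tested, and in bulk RNA fewer cells that express a gene and less RNA per cell cannot be told apart.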

How the data were processed

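Messenger RNA was sequenced as poly(A) RNA, primed with random hexamers, in paired-end reads from 12 libraries. The authors used STAR for alignment to GRCh38 and for counting (release 2.6.1 in the submitters' processing notes, which also name DESeq2 2). The deposited counts are whole numbers for each Ensembl gene ID, without normalization. The strand setting is not given in the sources used here. The name table held 93.5% of the 48162 IDs, and 69.8% had a symbol other than the ID. Library totals were 16128055 to 19503457 counts, all of the same order, so genes with few counts (OXTR in RAS, CASS4 in DOT1L OE) are the least precise, and counting intervals cover counting error only.

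Tests on the counts used edgeR 4.0.16 under R 4.3.3 (filterByExpr, TMM factors, quasi-likelihood F test, two-sided, Benjamini-Hochberg adjustment over all genes tested, called under 0.05), with each comparison fitted on its own 6 libraries. The SE of a log2 change was not taken from the fit but set as its size divided by the square root of the F statistic. CPM used TMM-scaled library sizes over all 12 libraries. The edgeR code was tested on simulated data. The 6 genes and the lists were chosen with earlier results of these data known. The named genes were the 6 genes, DOT1L and HRAS, their relatives, genes that start within 500 kb, the 3 genes most correlated with each over the 12 libraries (log2 CPM, prior count 2, mean of at least 10 CPM in 1 group), and up to 2 genes per list and direction with the smallest p, not all of which are reported here. Lists were described by counts and medians.

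Alternatives were edgeR with DESeq2 size factors, library size alone, no filter beyond 1 count, CPM of at least 1 in 3 libraries, DESeq2 1.42.0 (Wald test), limma-voom (limma 3.58.1), a joint fit of the 4 groups, a replicate block, the trend of each library over 20 bins of transcript GC content (GENCODE release 44) as an offset, and each library left out. No library was a copy of another: between libraries of a group, chi-square divided by its degrees of freedom was 4.33 to 7.87, far above sampling noise. Promoters came from RefSeq (GRCh38.p14).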

Additional observations from a re-analysis of the deposited data

How the results depend on the processing

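The counts of genes called higher and lower stayed within 1.5 times of the reported ones under every alternative run, in each of the 4 comparisons. With library size as the only scaling, however, the share of higher calls moved to 36.9% from 49.9% in RAS against control and to 40.0% from 50.3% in RAS/shDOT1L against control, with the median over all genes at -0.24 and -0.13 on the log2 scale. The replicate numbers did not pair the libraries: deviations of same-numbered libraries from their group means correlated at -0.019 to 0.0273, and at most 4 of 6 libraries of a comparison were closest to their own number. With the replicate block, 4211 genes were higher and 4224 lower in RAS against control, 4026 and 4004 in DOT1L OE against control, 3392 and 3479 in RAS/shDOT1L against RAS, and 3654 and 3649 in RAS/shDOT1L against control.

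All 6 genes kept the direction of their difference in the 4 comparisons under every alternative. Leaving out RAS replicate 1 was the one change that moved a fold of theirs by over 1.5 times, for OXTR and STXBP6 only. STXBP6 and PLCB4 have the lowest transcript GC content of the 6 (40.0% and 39.5%), and with the GC offset their log2 changes were -3.61 and -2.71 in RAS against control. Among the other genes named or tested beside them, differences that turned were those of BCAR1 (-0.21), EFS (-0.33), STXBP5 (0.21) and GNAS (0.024) in RAS against control with the GC offset, and of BCAR1 (0.32) and PHLDA2 (0.13) in RAS/shDOT1L against RAS. With the GC offset and the replicate block together they were -0.21, -0.33, 0.18, 0.025, 0.32 and 0.12. UBE2H in RAS against control turned to -0.041 with library size alone. The cause was not tested. PLCB1 in RAS/shDOT1L against RAS, not past the test, passed it without RAS/shDOT1L replicate 1 (adjusted p = 0.0437) or replicate 3 (adjusted p = 0.0322) and in 1 fit over all 4 groups (adjusted p = 0.0235). In DOT1L OE against control PLCB1 passed it without DOT1L OE replicate 1 (adjusted p = 0.0399). With library size alone, CEP41 passed it in RAS against control (adjusted p = 0.00653) and EFS no longer did (adjusted p = 0.481). Where a reported count over the SNARE, Gq, CAS or imprinted genes moved by over 1.5 times, its value is given beside it. For the carboxypeptidases the 2 lower genes in RAS/shDOT1L against RAS became 1 with the GC offset and without RAS/shDOT1L replicate 1.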
